A study of Mus musculus with 16 samples.

Results

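The lysyl oxidase family of the mouse has 5 genes, Lox, Loxl1, Loxl2, Loxl3 and Loxl4, and all 5 were found by symbol among the 49139 genes with a symbol in the count tables. The cells came from 4T07 mammary carcinoma tumours in the fat pad of female mice, hybrids of Balb/cJ and C57BL/6J. Each mixed tumour started from 250000 injected cells, GFP-transduced and mCherry-transduced at 1:1, and its host was given 7000000 PD1KO Jedi T cells by tail vein. Jedi T cells carry a receptor for a peptide of GFP, so that GFP cells are targeted and mCherry cells of the same tumour are not. Tumours had grown for 7 or 15 days when the T cells were given, and they were collected 7 days after that; the groups are called day 7 and day 15. There were 3 libraries of surviving GFP cells and 3 of mCherry cells for each day, and 4 libraries of mCherry cells from control tumours without Jedi T cells, 16 in all. All groups are of the one tumour line, and no library is of GFP cells from a tumour without T cells, so reporter colour and T cell attack cannot be told apart. Not given in the sources used here are the promoter of the reporters, the age of the mice and the CD45 gate. For the control tumours, the labels give neither the number of injected cells nor a time of collection. Their growth time relative to day 15 tumours is therefore not known here. Nothing states that any library pooled tumours.

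Lysyl oxidases are copper-dependent amine oxidases that are secreted into the matrix. They turn lysines of collagens and elastin into reactive aldehydes, which then form the cross-links that stiffen collagen fibres. In mammary tumours Lox is known for its induction by hypoxia and for its part in stiffening the stroma, and Loxl2 for its links to invasion. Lox and Loxl1 are made with a propeptide that is cleaved outside the cell, while Loxl2, Loxl3 and Loxl4 carry scavenger receptor cysteine-rich domains before the catalytic part. Loxl2 and Loxl3 have also been placed in the nucleus, beside Snai1.

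The catalytic parts are alike, which bears on whether short reads can be assigned to a single member. The copper ion is held by histidines of a short motif, and the 33 coding bases around it are shown for 4 members, 5′ to 3′ on the coding strand, with the 4 histidine codons of the motif in capitals.
Loxl1: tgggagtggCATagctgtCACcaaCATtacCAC
Loxl2: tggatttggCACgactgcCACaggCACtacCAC
Loxl3: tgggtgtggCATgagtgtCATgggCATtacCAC
Loxl4: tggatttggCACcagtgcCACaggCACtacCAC
They were read from GENCODE M21 transcripts (GRCm38) and lie at coding bases 1426 to 1458 of Loxl1, 1864 to 1896 of Loxl2, 1804 to 1836 of Loxl3 and 1819 to 1851 of Loxl4. In these windows Lox and Loxl1 shared 32 of 33 bases and Loxl2 and Loxl4 shared 31 of 33. Loxl1 and Loxl4 had the lowest identity, 63.6%, and 20 bases were the same in all 5 genes. Over the whole transcripts, no pair shared an identical stretch of more than 32 bases. The coding sequences were 411 codons long for Lox, 607 for Loxl1, 776 for Loxl2, 754 for Loxl3 and 758 for Loxl4.

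On GRCm38, Lox lies on chromosome 18 from 52516067 to 52529867, Loxl1 on chromosome 9 from 58287738 to 58313186 and Loxl4 on chromosome 19 from 42593982 to 42612813, all on the minus strand. Loxl2 on chromosome 14 from 69609068 to 69695834 and Loxl3 on chromosome 6 from 83034173 to 83052562 are on the plus strand. Not given in the sources used here is whether reads were counted by strand. Loxl3 shares 535 exonic bases with Htra2, a mitochondrial serine protease gene on the opposite strand, so the values of Htra2 are given beside those of Loxl3. The antisense gene that shares 301 exonic bases with Loxl2, Gm27177, held at most 1 count in any library.

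Depth ran from 9412040 to 14535791 counts per library in day 7 GFP cells and from 12942893 to 19970822 counts in their mCherry partners. It ran from 21183324 to 24880582 counts in day 15 GFP cells, from 21832170 to 22248031 counts in their mCherry partners and from 24367417 to 32808354 counts in the controls. Run 1 held the day 7 libraries and run 2 the rest, so a difference in level between days cannot be told apart from one between runs. The keratin gene Krt8 stood at 332 to 912 counts per 1000000 (CPM) in the 16 libraries, while Epcam, another epithelial marker, stood at 0.569 to 2.64 CPM. The 8 macrophage markers summed to 465 to 711 CPM in day 7 mCherry libraries and to 61.8 to 134 CPM in the GFP libraries of the same tumours. Control library 2 stood apart in matrix genes, with 2975 CPM over 9 substrate genes of lysyl oxidases against 771 to 1264 CPM in the other 3 controls. In bulk RNA, fewer cells of a type and less RNA per cell cannot be told apart.

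Per length, Loxl3 was the most abundant member in each of the 16 libraries. Its mean was 45.3 ± 0.563 CPM per kb of exon (SD, n = 3) in day 7 GFP and 29.1 ± 3.46 CPM per kb in day 7 mCherry cells. On day 15 it was 46.4 ± 11.3 and 39.2 ± 6.4 CPM per kb in the 2 colours, and 40.2 ± 0.699 CPM per kb in the controls (n = 4). Lox ranged from 0.827 CPM per kb in day 7 GFP cells to 6.32 CPM per kb in day 15 mCherry cells, as group means. Loxl4 ranged from 1.55 to 4.62 CPM per kb and Loxl1 from 0.779 to 3.18 CPM per kb. Loxl2 was the lowest member on average in every group, between 0.0904 CPM per kb in day 7 GFP cells and 1.15 CPM per kb in the controls.

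**Figure D1:**
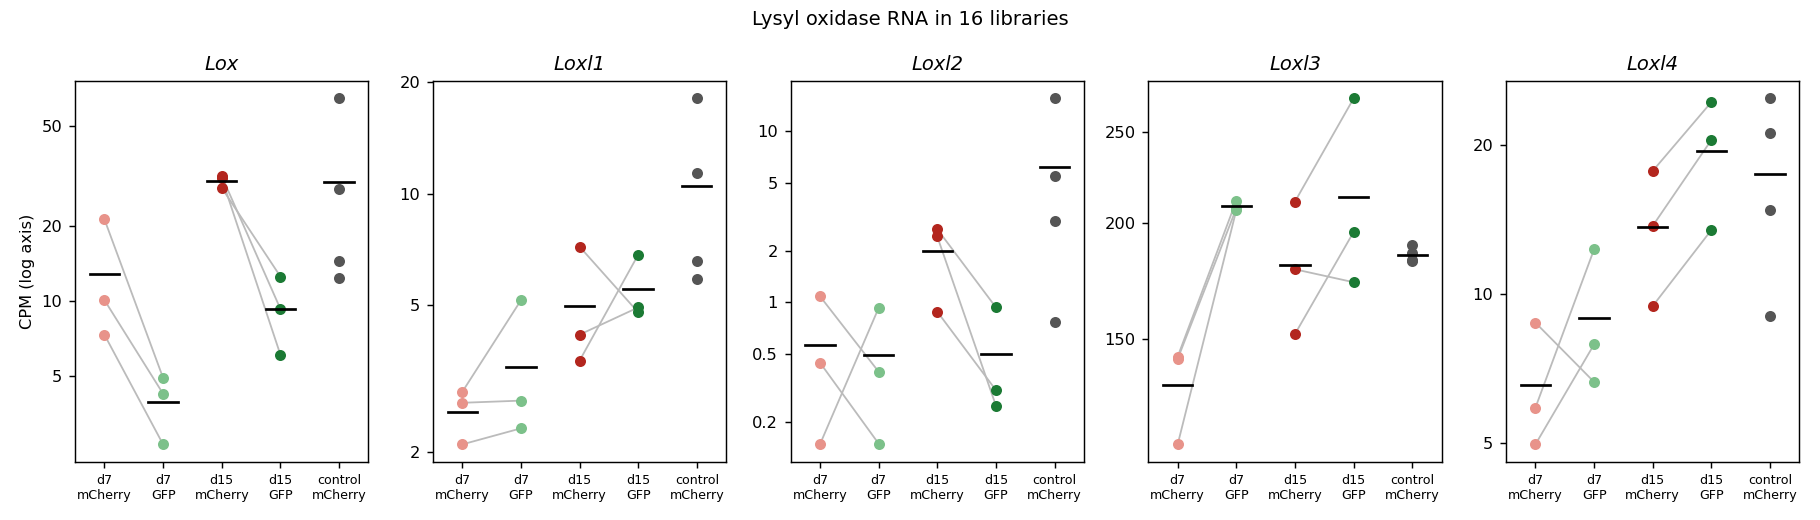
CPM of each lysyl oxidase gene (log axis, scaled per panel) by group, with 1 point per library, a bar at the group mean and a grey line joining the 2 libraries of a tumour. Lox is lower in the GFP library of all 6 mixed tumours, and Loxl3 is higher in the GFP library of all 3 day 7 tumours.

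The within-tumour comparisons ask how GFP cells that survived T cell attack differ from untargeted cells beside them. On day 7, 1 of the 4 members tested was lower in GFP cells (Lox) and 1 was higher (Loxl3), where 18.2% of all 14578 genes tested were called, 9.33% lower and 8.89% higher. On day 15, 2 of 5 were lower (Lox and Loxl2) and 1 was higher (Loxl4), where 19.5% of 14260 genes tested were called, 10.6% lower and 8.94% higher. The median log2 fold change of the members was 0.41 on day 7 and 0.19 on day 15, beside −0.004 and 0.006 over all genes tested. All calls are from edgeR's quasi-likelihood F-test with tumour as a block and Benjamini-Hochberg adjustment over all genes tested, at an adjusted p of 0.05.

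Lox, the founding member and the enzyme best known for cross-linking collagen in tumours, fell in GFP cells on both days. In day 7 tumours 2, 3 and 4 it stood at 2.67, 4.92 and 4.26 CPM in GFP cells and at 7.33, 21.2 and 10.1 CPM in mCherry cells. In day 15 tumours 1, 2 and 3 it stood at 9.29, 12.5 and 6.09 CPM in GFP cells and at 31.5, 28.3 and 30.9 CPM in mCherry cells. On neither day did the colours overlap, and the day 15 mCherry libraries lay close together while the GFP libraries were more spread. Within single tumours the mCherry to GFP ratio was 2.74, 4.30 and 2.37 on day 7 and 3.39, 2.26 and 5.07 on day 15. The fall was 3.05-fold on day 7 (log2 fold change −1.61, SE 0.23, edgeR adjusted p = 0.00142). It was 3.35-fold on day 15 (log2 fold change −1.74, SE 0.19, edgeR adjusted p = 2.75e-04). The difference between the 2 falls was −0.13 on the log2 scale (SE 0.32, edgeR adjusted p = 0.940). Leaving out any 1 tumour kept the call on both days, with day 7 log2 fold changes between −1.83 and −1.31 and day 15 ones between −2.04 and −1.46. The joint fit of day 15 and control libraries, which has no tumour block, gave −1.70 with an adjusted p of 0.0587.

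In control tumours Lox stood at 12.3, 64.5, 14.4 and 27.9 CPM in libraries 1 to 4, so library 2 was 2.31 times the highest of the others. The mean of 29.8 ± 24.1 CPM (SD, n = 4) became 18.2 ± 8.45 CPM (n = 3) without it. Ordered by mean, Lox was highest in day 15 mCherry cells (30.2 ± 1.70 CPM), followed by the controls, day 7 mCherry cells (12.9 ± 7.34 CPM), day 15 GFP cells (9.30 ± 3.21 CPM) and day 7 GFP cells (3.95 ± 1.16 CPM). Among neighbours in that order, only the 2 GFP groups did not overlap, and these were sequenced in different runs. Against the controls, Lox differed by 0.01 in day 15 mCherry cells on the log2 scale (SE 0.50, edgeR adjusted p = 0.993). In day 15 GFP cells it was at −1.68 (SE 0.57), which missed the threshold (edgeR adjusted p = 0.0812). Leaving out any 1 library gave −1.95 to −0.97 for that comparison, with edgeR adjusted p-values of 0.0479 to 0.200. It passed without control library 1 (−1.94, adjusted p = 0.0479) and with no filter on low counts (−1.70, adjusted p = 0.0195).

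Markers of some host cell types moved with Lox between colours, and so did some tumour epithelial markers. Of the epithelial markers tested on day 7, 2 of 4 were lower in GFP cells and 1 was higher. On day 15, 2 of 6 were lower and 1 was higher. On day 7, 7 of 7 endothelial markers tested and 8 of 8 macrophage markers were lower in GFP cells, and the 8 endothelial markers summed to 5.03 to 5.97 CPM in GFP against 26.1 to 48.5 CPM in mCherry libraries. In each day 7 GFP library 1 or 2 of the 8 endothelial markers were at 0. On day 15, 3 of 8 endothelial and 5 of 7 macrophage markers tested were lower, with summed endothelial levels of 8.06 to 11.8 CPM in GFP and 8.81 to 31.4 CPM in mCherry libraries. Neither of the 2 pericyte and smooth muscle markers tested on day 7 passed, and 1 of 5 was lower on day 15, with sums of 11.6 to 16.8 CPM against 16.4 to 28.0 CPM. The fibroblast markers did not move one way: their sum was 740 to 814 CPM in GFP and 687 to 834 CPM in mCherry cells on day 7, and 1342 to 1498 against 877 to 1047 CPM on day 15. Most of that sum was Dcn and Pdgfra, while Pi16, named after its values were seen, fell on both days (from 78.1 to 14.1 CPM, edgeR adjusted p = 1.25e-04, and from 103.8 to 37.2 CPM, edgeR adjusted p = 1.61e-04, as group means). In day 15 tumour 2 the endothelial sum was 8.36 CPM in GFP and 8.81 CPM in mCherry cells, and Lox was 2.26 times higher in the mCherry library. The pericyte sum of that tumour was 16.8 CPM in GFP and 25.9 CPM in mCherry cells. In day 15 tumours 1 and 3 the endothelial sum was 8.06 and 11.8 CPM in GFP and 31.4 and 23.9 CPM in mCherry cells. Lox was 3.39 and 5.07 times higher in the mCherry libraries of tumours 1 and 3, so its ratio was smallest in tumour 2. Over all tumours, the part of host cells in the fall of Lox was not tested.

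**Figure D2:**
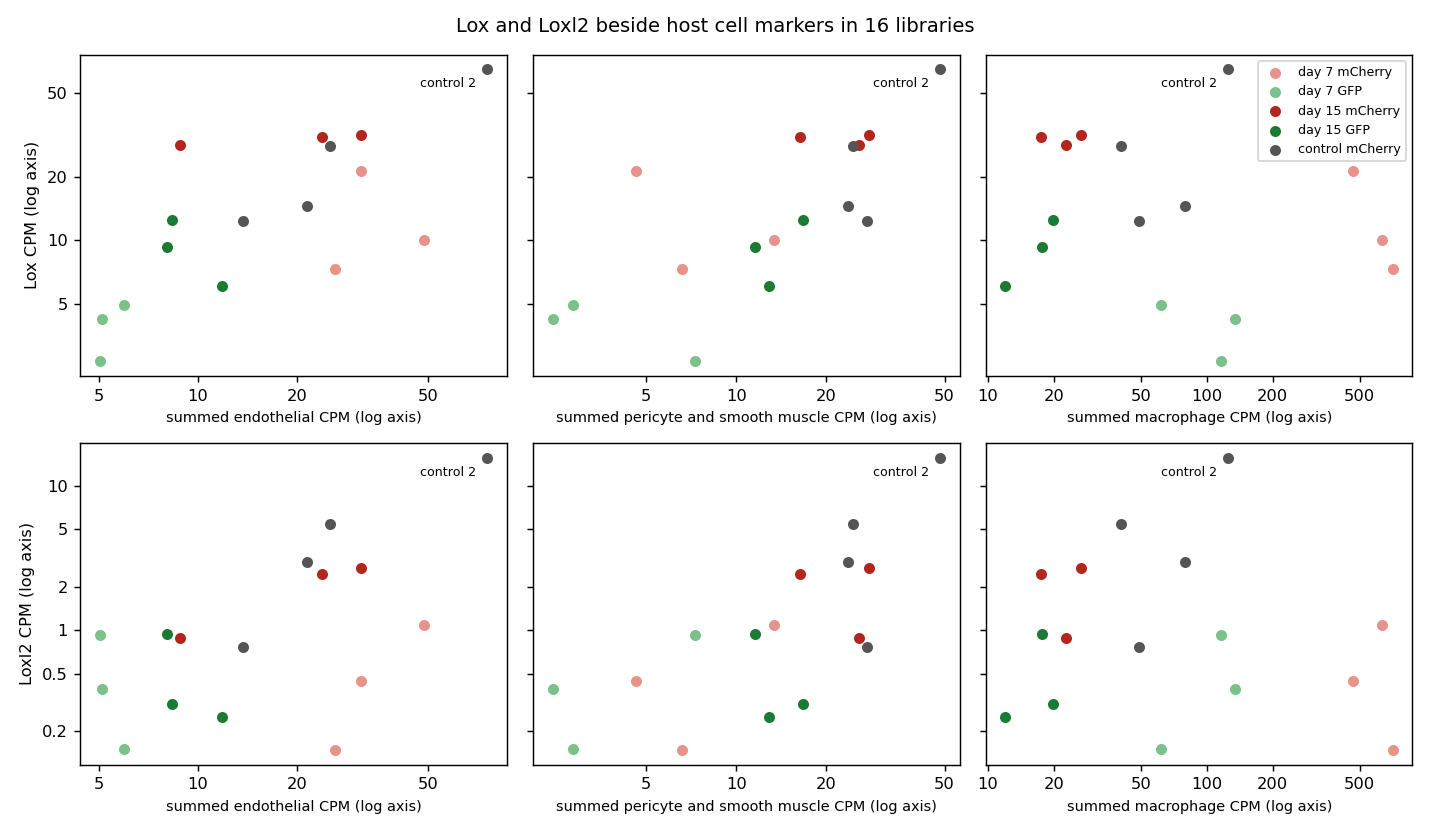
Lox (top) and Loxl2 (bottom) in CPM against summed CPM of endothelial, pericyte and smooth muscle, and macrophage markers, both on log axes, with 1 point per library. Control library 2 is highest in Lox, Loxl2, endothelial and pericyte markers. Day 15 mCherry libraries 1, 2 and 3 have endothelial sums of 31.4, 8.81 and 23.9 CPM and 31.5, 28.3 and 30.9 CPM of Lox.

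Loxl2, a secreted oxidase of basement membrane collagen, was scarce in these cells. On day 7 it had 9, 2 and 6 counts in the GFP libraries of tumours 2, 3 and 4 and 3, 7 and 14 counts in the mCherry libraries. It did not pass the filter on low counts for that comparison, the colours overlapped, and no fold change is given. On day 15 it had 19, 7 and 6 counts in GFP cells of tumours 1, 2 and 3 (0.934, 0.306 and 0.249 CPM) and 60, 19 and 52 counts in mCherry cells (2.68, 0.881 and 2.43 CPM). The mCherry library was higher in each tumour, by 2.87, 2.88 and 9.75 times, although the mCherry level of tumour 2 lay below the GFP level of tumour 1. Loxl2 was 4.13-fold lower in day 15 GFP cells (log2 fold change −2.05, SE 0.43, edgeR adjusted p = 0.00914). The call ended without tumour 3 (−1.51, adjusted p = 0.0669) and in the joint fit without a tumour block (−2.03, adjusted p = 0.208). The difference between days, −1.89 on the log2 scale with an SE of 0.99, was not called (edgeR adjusted p = 0.542). Without day 7 tumour 2 it was −0.57, and without any other 1 tumour between −2.80 and −1.36.

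The controls held more Loxl2 than any mixed tumour group on average, but their libraries were far apart, at 0.768, 15.6, 2.98 and 5.46 CPM. Library 2 was 2.85 times the highest other control, and without it the mean fell from 6.19 ± 6.53 CPM (n = 4) to 3.07 ± 2.35 CPM (n = 3). All neighbours in the order of group means overlapped. Against the controls, day 15 GFP cells had 12.7-fold less Loxl2 (log2 fold change −3.67, SE 1.02, edgeR adjusted p = 0.0473), and no other member was called in this comparison, where 13.1% of 14801 genes tested were called, 6.97% as lower. Leaving out any 1 of the 3 day 15 GFP libraries, or of control libraries 2, 3 and 4, ended the call, with −2.64 and an adjusted p of 0.136 at the weakest. Day 15 mCherry cells were at −1.64 against the controls (SE 0.86, edgeR adjusted p = 0.407), and at −0.61 without control library 2 (adjusted p = 0.734). Endothelial markers summed to 13.7, 75.7, 21.4 and 25.3 CPM in control libraries 1 to 4. The order of these libraries is that of their Loxl2 levels. It is also the order of their Lox, Loxl1 and summed substrate levels, but not of Loxl3 or Loxl4. On day 7 the endothelial sum was 5.03 to 5.97 CPM in GFP and 26.1 to 48.5 CPM in mCherry libraries. Loxl2, which did not pass the filter there, averaged 0.489 CPM in GFP and 0.559 CPM in mCherry cells. Its mCherry to GFP ratio was 0.160, 2.97 and 2.76 in day 7 tumours 2, 3 and 4, so the tumours did not go one way. The part of endothelial cells in the Loxl2 values was not tested.

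Loxl3, a family member known for its role in palate and cartilage development, was higher in GFP cells on day 7. It stood at 211, 207 and 206 CPM in GFP cells of tumours 2, 3 and 4 and at 144, 143 and 116 CPM in mCherry cells. All 3 GFP libraries lay above all mCherry libraries, at nearly one level. The rise was 1.58-fold (log2 fold change 0.66, SE 0.10, edgeR adjusted p = 0.00230) and was kept without any 1 tumour, at 0.57 to 0.72. On day 15 the levels were 173, 196 and 272 CPM in GFP cells of tumours 1, 2 and 3 and 178, 152 and 211 CPM in mCherry cells. There the colours overlapped, with GFP to mCherry ratios of 0.969, 1.29 and 1.29, and the difference of 0.23 was not called (SE 0.10, edgeR adjusted p = 0.129). Without tumour 1 it was 0.36 with an adjusted p of 0.00293. The difference between days was −0.43 (SE 0.15) with an unadjusted p of 0.0158, which did not pass over the 16626 genes tested (edgeR adjusted p = 0.349). None of the members passed that test, in which 0.211% of genes were called.

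The controls were nearly level in Loxl3, at 182, 189, 186 and 183 CPM, and library 2, so high in Lox and Loxl2, was only 1.02 times the highest other control. The group means ran from day 15 GFP (213 ± 52.0 CPM) and day 7 GFP (208 ± 2.59 CPM) through the controls (185 ± 3.22 CPM) and day 15 mCherry cells (180 ± 29.5 CPM) to day 7 mCherry cells (134 ± 15.9 CPM). Neighbours without overlap were day 7 GFP cells and the controls, and day 15 and day 7 mCherry cells. Each of these neighbour pairs lies across the 2 sequencing runs. Neither day 15 group was called against the controls, with log2 fold changes of −0.04 (SE 0.10, edgeR adjusted p = 0.883) for mCherry and 0.21 (SE 0.14, edgeR adjusted p = 0.328) for GFP cells. Htra2, which overlaps Loxl3, had mean levels of 76.1 CPM in day 7 GFP and 65.7 CPM in day 7 mCherry cells, a log2 difference of 0.23 that was not called (edgeR adjusted p = 0.170). On day 15 Htra2 was at −0.21 (edgeR adjusted p = 0.126), opposite in sign to Loxl3, and its difference between days was −0.43 (SE 0.14, edgeR adjusted p = 0.303), as large as that of Loxl3.

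Loxl4, an oxidase of the same subgroup as Loxl2 and Loxl3, was higher in day 15 GFP cells. It stood at 13.5, 20.5 and 24.4 CPM in GFP cells of tumours 1, 2 and 3 and at 9.46, 13.7 and 17.7 CPM in mCherry cells. The groups overlapped because the tumours differed, but the GFP library was higher in each, by 1.42, 1.49 and 1.38 times. The rise of 1.43-fold (log2 fold change 0.52, SE 0.12, edgeR adjusted p = 0.0138) did not pass when the block was dropped (adjusted p = 0.204), in the joint fit (0.344) and without tumour 3 (0.55, adjusted p = 0.0575). On day 7 Loxl4 stood at 7.91, 6.64 and 12.3 CPM in GFP and 4.97, 8.75 and 5.89 CPM in mCherry cells of tumours 2, 3 and 4. Tumour 3 went the other way from tumours 2 and 4, and the difference of 0.46 was not called (SE 0.28, edgeR adjusted p = 0.291). The difference between days was 0.06 (SE 0.31, edgeR adjusted p = 0.976). The controls held 9.02, 21.2, 14.8 and 24.8 CPM and overlapped both day 15 groups, with differences of −0.36 for mCherry (SE 0.33, edgeR adjusted p = 0.632) and 0.16 for GFP cells (SE 0.32, edgeR adjusted p = 0.767). All neighbours in the order of its group means overlapped.

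Loxl1, which is required for elastic fibre upkeep, was not called in any comparison. On day 7 it stood at 5.14, 2.31 and 2.75 CPM in GFP and 2.90, 2.09 and 2.71 CPM in mCherry cells of tumours 2, 3 and 4, a log2 difference of 0.37 (SE 0.30, edgeR adjusted p = 0.433). On day 15 it stood at 4.92, 6.83 and 4.77 CPM in GFP and 4.15, 3.52 and 7.18 CPM in mCherry cells of tumours 1, 2 and 3, a difference of 0.19 (SE 0.27, edgeR adjusted p = 0.672). The colours overlapped on both days, and in day 15 tumour 3 the mCherry library was the higher one. Without tumour 2 the day 15 value turned to −0.18. The controls held 5.86, 18.1, 6.56 and 11.4 CPM, a mean of 10.5 CPM that became 7.93 ± 3.00 CPM (n = 3) without library 2. Against the controls the day 15 differences were −1.09 in mCherry (SE 0.42, edgeR adjusted p = 0.313) and −0.93 in GFP cells (SE 0.38, edgeR adjusted p = 0.132). The difference between days was −0.18 (SE 0.43, edgeR adjusted p = 0.934), and all neighbours in the order of group means overlapped.

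**Figure D3:**
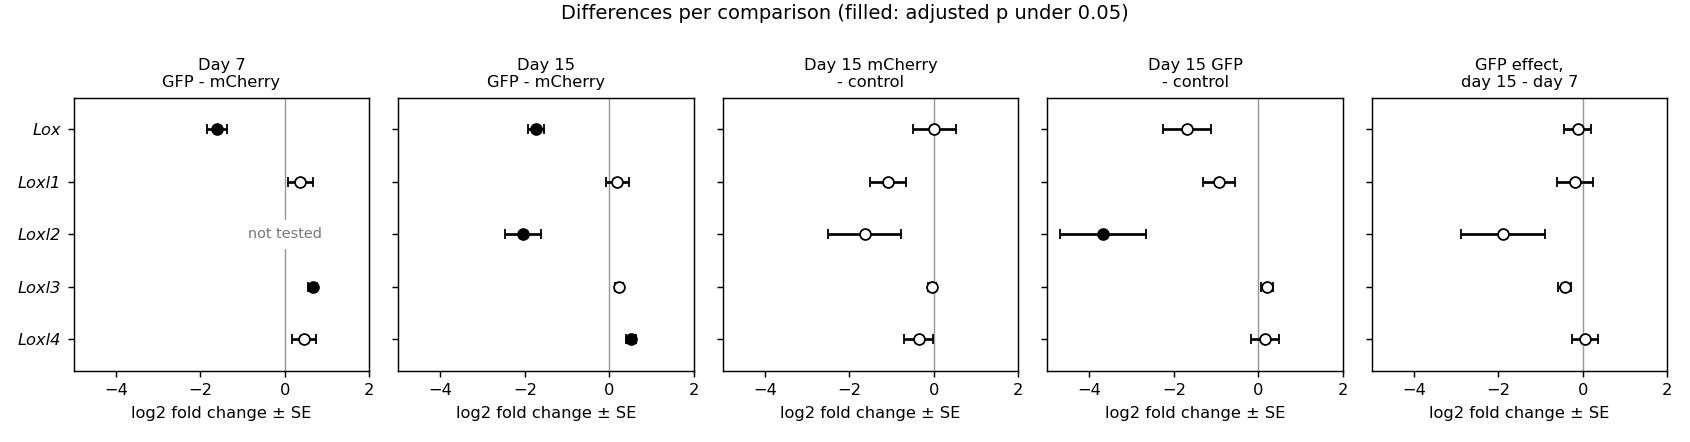
Log2 fold change of each member with its SE in the 5 comparisons, with filled points at an edgeR adjusted p under 0.05. Lox is filled to the left in both within-tumour panels, Loxl3 to the right on day 7 and Loxl4 to the right on day 15, and in the day 15 mCherry against control panel no point is filled.

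No member was called in day 15 mCherry cells against the controls, and neither was any other gene: 0% of 14800 genes passed with edgeR, 2104 of them had an unadjusted p under 0.05, and DESeq2 called 262. The within-tumour comparisons share no libraries between days, but both day 15 comparisons with the controls use the same 4 control libraries. The authors' deposited tables list Lox at −1.60 on day 7 and −1.75 on day 15, with adjusted p-values of 4.48e-06 and 4.00e-15. They list Loxl3 at 0.66 (adjusted p = 1.19e-05) on day 7 and 0.23 (adjusted p = 0.177) on day 15. For day 15 the authors' deposited table also has Loxl2 at −2.07 (adjusted p = 0.00543) and Loxl4 at 0.52 (adjusted p = 0.0166).

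The make-up of the family, as shares of its summed CPM per kb, shifted between colours. Loxl3 made up 91.8 ± 1.31% of it in day 7 GFP and 85.2 ± 4.26% in day 7 mCherry cells (SD, n = 3). On day 15 its share was 84.5 ± 2.89% in GFP and 77.4 ± 1.26% in mCherry cells (n = 3), and in the controls 74.7 ± 11.3% (n = 4). Lox took 1.68% and 3.77% of the sum in day 7 and day 15 GFP cells, and 7.70% and 12.6% in mCherry cells of those days, as group means. In the controls the share of Lox ran from 5.57% to 19.8%, and the highest was in library 2, where Loxl3 was at 60.5%. The shares of a library add up to 100%, so the share of one member falls when that of another rises.

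**Figure D4:**
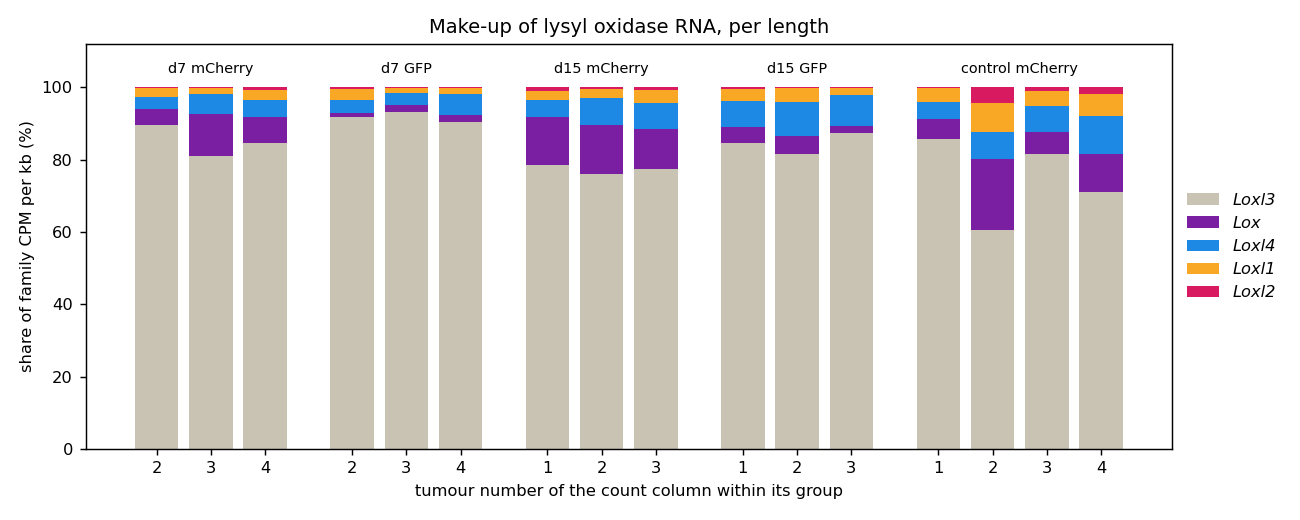
Share of each member in the summed CPM per kb of the 5 genes (%), as 1 stacked bar per library. Loxl3 fills 60.5% or more of every bar, and the Lox segment is thinner in the GFP library of each mixed tumour.

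The other genes of the pathway came from 6 lists: copper supply, propeptide cleavage and matrix scaffold, collagen hydroxylation and folding, substrates, regulators of expression, and nuclear partners. The counts of called genes in these lists stand beside shares over all genes tested. These were 18.2% on day 7 (9.33% lower, 8.89% higher) and 19.5% on day 15 (10.6% lower, 8.94% higher). A count near its share says little about a list. Copper supply feeds the active site. Of its 4 genes 1 was lower on each day: Atox1, a copper chaperone, at −0.63 (SE 0.10, edgeR adjusted p = 0.00172) on day 7 and Slc31a1, the copper importer, at −0.34 (SE 0.08, edgeR adjusted p = 0.0179) on day 15. Leaving out tumour 2 or tumour 3 ended the Slc31a1 call (adjusted p = 0.0890 and 0.0998). On day 7 Slc31a1 was at −0.27 (edgeR adjusted p = 0.0975), and Slc31a2, a related copper transporter, was at −0.45 (edgeR adjusted p = 0.0510) on day 15. The list medians were −0.32 and −0.29.

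Propeptide cleavage matures Lox and Loxl1, and scaffold proteins place them on the matrix. Of 12 genes 8 were tested on each day. On day 7, 2 were lower and none was higher: Bmp1, the procollagen C-proteinase that also cleaves the Lox propeptide, at −0.39 (SE 0.11, edgeR adjusted p = 0.0399), and Pcolce2, an enhancer of that proteinase, at −0.54 (SE 0.11, edgeR adjusted p = 0.00843). Both calls ended without tumour 2 (adjusted p = 0.290 for Bmp1 and 0.0793 for Pcolce2) or without tumour 3 (0.0519 and 0.0723). On day 15 Bmp1 was lower at −0.81 (SE 0.10, edgeR adjusted p = 6.57e-04), with means of 185 CPM in GFP and 324 CPM in mCherry cells. Thbs1, a matrix glycoprotein that can activate TGF-beta, was higher on day 15 at 0.97 (SE 0.11, edgeR adjusted p = 3.52e-04), a call that ended without the tumour block (adjusted p = 0.0604).

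Among collagen hydroxylation and folding genes, 1 of 12 tested was higher and 2 were lower on day 7, and 1 was higher and 6 were lower on day 15, with medians of −0.18 and −0.28. The gene higher on both days was P4ha1, a prolyl hydroxylase subunit, at 0.35 and 0.53 (edgeR adjusted p = 0.0487 and 0.0182), named after its values were seen. Plod2, which hydroxylates the telopeptide lysines that lysyl oxidases act on, was lower on day 7 at −0.83 (SE 0.10, edgeR adjusted p = 3.95e-04), from 232 to 129 CPM. Serpinh1, a collagen chaperone, was at −0.90 on day 7 (SE 0.27, edgeR adjusted p = 0.0474), and its call ended without tumour 3 (adjusted p = 0.0778), without the block (0.0613) and with DESeq2 (0.276). On day 15 the genes of smallest p were P3h1, a prolyl 3-hydroxylase, at −0.57 (SE 0.10, edgeR adjusted p = 0.00339) and P4ha3, another prolyl hydroxylase subunit, at −1.97 (SE 0.43, edgeR adjusted p = 0.0103), from 1.72 to 0.427 CPM.

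The substrates were lower in GFP cells where they were called. Of 9 genes for collagens, elastin and fibrillin, 3 fell on day 7 and 5 on day 15 and none rose. Over all genes tested, 9.33% and 10.6% fell. The median log2 fold changes were −0.82 and −1.14, beside −0.004 and 0.006 over all genes tested. Tumours differed: Col1a2, Col3a1 and Col5a2, named after their values were seen, were higher in the GFP library of tumour 2 on each day. The GFP to mCherry ratios were 2.78, 1.86 and 2.92 on day 7, and 1.80, 1.64 and 1.57 on day 15. All 3 were lower in GFP cells of the other tumours. Eln, which encodes elastin, fell from 18.1 to 4.12 CPM on day 7 (log2 fold change −2.12, SE 0.20, edgeR adjusted p = 1.21e-04). Col5a1, a collagen V chain, fell on both days, from 213 to 121 CPM on day 7 (−0.80, SE 0.14, edgeR adjusted p = 0.00348) and from 423 to 195 CPM on day 15 (−1.14, SE 0.11, edgeR adjusted p = 1.67e-04). Fbn1, the microfibril protein fibrillin-1, fell from 21.3 to 9.63 CPM on day 15 (−1.11, SE 0.14, edgeR adjusted p = 6.57e-04), and missed the threshold in the joint fit (adjusted p = 0.0625). Against the controls 6 of the 9 were lower in day 15 GFP cells, where 6.97% of all genes tested were lower. The median of the 9 was −1.78 there. In day 15 mCherry cells it was −0.64, and neither these nor any other genes were called. These collagens are also abundant in fibroblasts, whose markers went both ways. Of the 5 tested on day 7, 1 was lower and none was higher, and of 8 tested on day 15, 2 were lower and 1 was higher. On day 15 Dcn, a matrix proteoglycan, was at 737 CPM in GFP and 312 CPM in mCherry cells (edgeR adjusted p = 3.04e-05). Pdgfra, a growth factor receptor of fibroblasts, was at 656 and 544 CPM (edgeR adjusted p = 0.0576). The part of fibroblasts in the falls was not tested.

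Of the regulators of lysyl oxidase expression 10 were tested on each day, 1 higher and 3 lower on day 7, and 1 higher and 2 lower on day 15. Over all genes tested, 18.2% and 19.5% were called in either direction. Ctgf, a matricellular protein and a common TGF-beta target, was the higher one on both days, at 1.00 (SE 0.11, edgeR adjusted p = 2.87e-04) and 1.26 (SE 0.10, edgeR adjusted p = 5.73e-05). Its mean level was 908 CPM in GFP and 460 CPM in mCherry cells on day 7, and 989 and 417 CPM on day 15. Of the TGF-beta ligand genes, Tgfb3 was lower on day 7 at −0.82 (SE 0.10, edgeR adjusted p = 4.46e-04) and Tgfb1 on day 15 at −0.79 (SE 0.10, edgeR adjusted p = 6.99e-04). Tgfb1 was not called on day 7 (−1.10, edgeR adjusted p = 0.0517), nor Tgfb3 on day 15 (−0.21, edgeR adjusted p = 0.163), and Tgfb2 did not pass the filter on low counts on either day. The list medians were −0.26 and −0.16.

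Of 7 genes tied to nuclear Loxl2 and Loxl3, 4 were tested on day 7 and 5 on day 15, and the same 1 was called on each day. Cdh1, which encodes E-cadherin, a junction protein that Snai1 represses, rose from 6.79 to 25.4 CPM on day 7 (log2 fold change 1.92, SE 0.16, edgeR adjusted p = 5.54e-05). On day 15 it rose from 13.5 to 34.8 CPM (log2 fold change 1.36, SE 0.11, edgeR adjusted p = 5.92e-05). The zinc-finger repressors were not called: Zeb2 was at 0.31 (edgeR adjusted p = 0.0510) on day 7 and Zeb1 at −1.28 (edgeR adjusted p = 0.0846) on day 15. No gene of these 6 lists was called for the difference between days, where only 0.211% of 16626 genes tested were called.

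**Figure D5:**
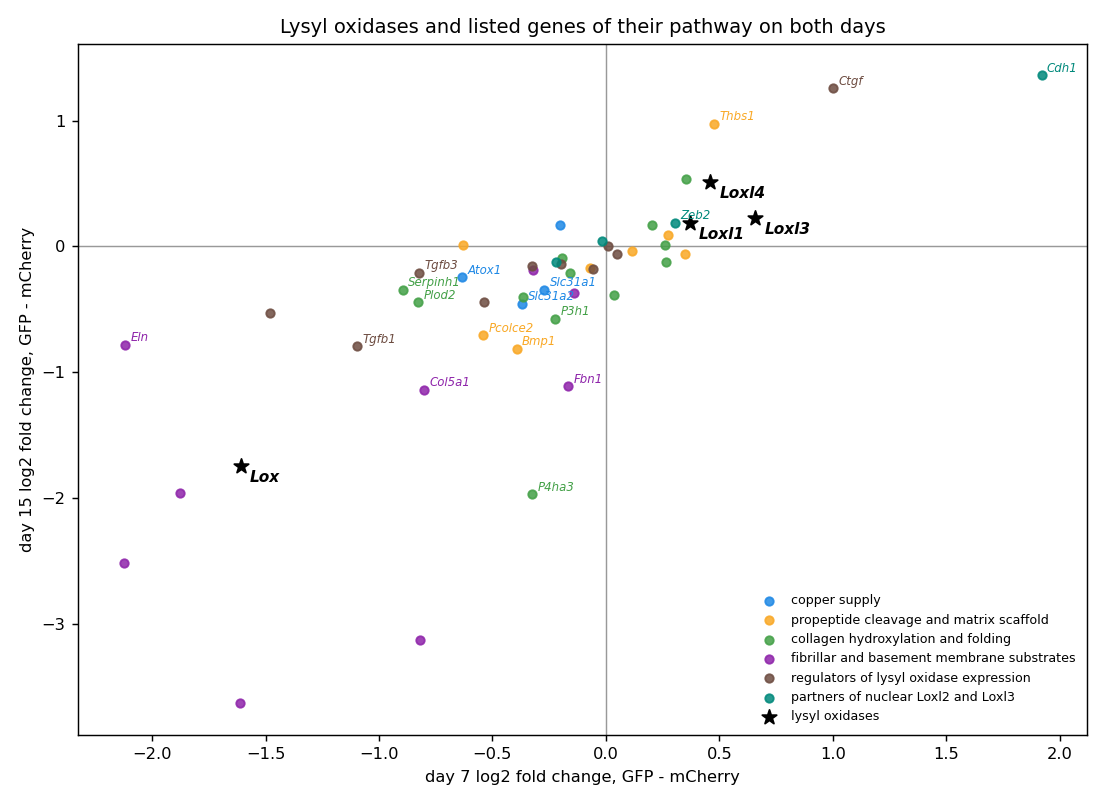
Log2 fold change of GFP against mCherry cells on day 15 against day 7 for listed genes tested on both days, coloured by list, with the 4 lysyl oxidases tested on both days as stars. Lox lies at −1.61 and −1.74 among the substrates at lower left, and Loxl1, Loxl3 and Loxl4 lie at the upper right.

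The members did not all vary together across the 16 libraries. Among Lox, Loxl1, Loxl2 and Loxl4, Pearson's r of log2 CPM was positive for every pair, from 0.432 to 0.774. It was 0.774 between Loxl1 and Loxl2, 0.724 between Lox and Loxl2 and 0.718 between Loxl1 and Loxl4. For Loxl3, r was −0.239 with Lox, −0.028 with Loxl2, 0.352 with Loxl1 and 0.558 with Loxl4. These values describe libraries that share tumours, runs and control library 2. The likeness was computed over other genes whose log2 CPM averaged 1 or more (11592 for Loxl2 and 11591 for each other member). The genes most like Lox were F5, coagulation factor V (r = 0.943), Thbs2, a matrix thrombospondin (r = 0.928), and Itih2, an inter-alpha-trypsin inhibitor chain (r = 0.910). F5 stood at 78.9 CPM in day 7 GFP and 236 CPM in day 7 mCherry cells, and at 163 and 347 CPM on day 15, as group means. Loxl2 was nearest to Synpo2 (r = 0.937), Fstl1 (r = 0.919) and Col5a2, a collagen V chain (r = 0.916). Col5a2 stood at 0.83 CPM in day 15 GFP, 12.4 CPM in day 15 mCherry and 40.3 CPM in control cells. Loxl1 was nearest to Aebp1 (r = 0.872), Rps6ka2 (r = 0.866) and Tnc, the matrix glycoprotein tenascin C (r = 0.863).

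The 3 genes nearest to Loxl3 were not matrix genes. They were Gm8909, an MHC class I gene model whose reads may be split with near copies (r = 0.882), Parp3, a poly-ADP-ribose polymerase of DNA repair (r = 0.880), and Ap1g2, an adaptor subunit of vesicle transport (r = 0.872). Parp3 stood at 92.0 CPM in day 7 GFP and 33.1 CPM in day 7 mCherry cells, at 95.1 and 59.2 CPM on day 15, and at 74.0 CPM in the controls. Loxl4 was nearest to A430105I19Rik (r = 0.895), Hectd3, a ubiquitin ligase (r = 0.889), and Lrch1 (r = 0.884).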

How the data were processed

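Bulk RNA of sorted 4T07 cells was measured in 16 libraries. Per the labels' protocols, a sequencing company made the deposited raw counts per gene; the build was mm10 and DESeq2 was used, per the submitters' processing notes. Aligner, counter, annotation and the design of the deposited comparisons: not given in the sources used here. For each day the authors deposited a table with, per the file headers, log2 fold changes and their errors, the Wald score, the p-value and adjusted p-value, and baseMean, a signal averaged over libraries.

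Of 49315 genes per table, 176 had no symbol (at most 0.0110% of a library's counts) and were left out. CPM are counts over the total counts times the TMM factor of the 16 libraries. CPM per kb also divides by exon length in GENCODE M21 (GRCm38). Genes passing filterByExpr (minimum count 10, total 15) were tested with edgeR 4.0.16 in R 4.3.3, with SE as the size of the log2 change divided by the root of F. The 2 comparisons with controls had 3 against 4 libraries and no block. The difference between days used the 12 mixed tumour libraries. Figures were drawn with matplotlib 3.10.9. The test was checked on simulated data: of genes changed 2-fold it called 92% for day 7, 98% for day 15, 91% for mCherry cells against controls, 78% for GFP cells against controls and 78% for the difference between days. The changed genes averaged over 50 counts per library, and no tumour effect was simulated. These shares therefore do not cover scarcer genes, such as Loxl1 on day 7 and Loxl2 within day 15 tumours.

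Day 15 columns match the labels by name. Day 7 columns are numbered 2 to 4 and labels 1 to 3, so these and the controls were matched as groups, and numbers in the text are those of the columns. Day 15 pairs are given by the labels' tumour numbers, and day 7 pairs by shared column numbers. Residual correlations of same-numbered libraries were 0.110 to 0.158 on day 7 (other pairs −0.126 to 0.00670) and 0.0901 to 0.232 on day 15. Replicates differed beyond counting error (chi-square per degree of freedom 5.34 to 92.1). The labels give each control sample its own tumour number, so the spread of the controls is one between tumours, with any technical spread included. Nothing says whether these tumours came from separate mice.

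Members and lists were chosen with earlier results of these data known. The text names the 5 members, the 2 genes of smallest p per pathway list and day, the 2 most abundant markers per list (not all printed) and the 3 genes most correlated with each member. Alternatives were DESeq2 1.42.0, its size factors, no filter, a minimum count of 50, no block, a joint fit of the 10 run 2 libraries, and leaving out each tumour or library.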

Additional observations from a re-analysis of the deposited data

Results flagged for a closer look

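Genes and marker sums (37 in all) were checked for a value far from the rest in the 4 control libraries, and 3 had one, where chance alone would flag about 1 in 20 groups. P3h1 stood at 132.5 CPM in control library 3, against 102.1 to 104.4 CPM in the other 3. The pericyte and smooth muscle markers summed to 48.4 CPM in control library 2, the library that was also highest in Lox, Loxl1 and Loxl2, and to 23.7 to 27.4 CPM in the others. The adipocyte markers summed to 34.4 CPM in control library 4. Lox, Loxl2 and the substrate sum, all highest in control library 2, were checked in the same way and not flagged.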

How the results depend on the processing

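Over all alternatives, 215 of the members' values kept their direction and call, 12 lost the call, 5 gained it and 17 changed sign, all of the last among values that were not called; the cause was not tested. Without the tumour block (the replicate block), Lox stayed lower on day 7 (−1.67) and day 15 (−1.70) and Loxl2 on day 15 (−2.03), while Loxl4 on day 15 lost its call (0.52, adjusted p = 0.204). The joint fit ended the day 15 calls of Lox (−1.70), Loxl2 (−2.03) and Loxl4 (0.52), and called Lox in day 15 GFP cells against the controls (−1.69, adjusted p = 0.0445). No filter gave −1.70 for that value. DESeq2 called Loxl1 there (−0.92, adjusted p = 0.0461). For Lox in day 15 mCherry cells against the controls, no filter gave −0.00065 and a minimum count of 50 gave −0.0041. Genes called were 262 (day 15 mCherry against controls) and 2953 (GFP against controls) with DESeq2. For the difference between days they were 35 in the reported test, 153 with DESeq2, 354 with no filter, 14 with a minimum count of 50 and 2 without the block. Leaving out 1 tumour or library gave 1156 to 4558 genes on day 7 and 1736 to 2546 on day 15. It gave 0 to 7 and 287 to 2093 for mCherry and GFP against controls, and 3 to 126 for the difference between days. The members' ranges were −2.47 to −1.51 (Loxl2), 0.16 to 0.36 (Loxl3), 0.49 to 0.55 (Loxl4) and −0.18 to 0.60 (Loxl1) on day 15. Against controls, day 15 mCherry cells had −0.25 to 0.73 (Lox), −2.02 to −0.61 (Loxl2) and −0.17 to 0.0713 (Loxl3), and GFP cells −1.95 to −0.97 (Lox), −4.46 to −2.64 (Loxl2), −0.0028 to 0.34 (Loxl3) and −0.0591 to 0.37 (Loxl4). For the difference between days they were −0.44 to 0.14 (Lox), −0.55 to 0.22 (Loxl1), −2.80 to −0.57 (Loxl2) and −0.38 to 0.40 (Loxl4). On day 7 Loxl2 had 2 to 14 counts per library and did not pass the filter.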
